A study of Mus musculus with 6 samples.

Results

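The immediate early genes of neuronal activity described here were Fos, Fosb, Junb, Egr1, Egr2, Egr4, Arc, Npas4, Nr4a1 and Ier2. They were found by matching the gene identifiers of the deposited tables, without their version, to GENCODE vM21 symbols, and were 10 of the 52550 genes listed. All 10 had enough counts to be among the 18795 genes tested. The study profiled hippocampal RNA of male C57BL/6 mice (C57B6/J in the study's methods) aged 8 to 10 weeks, with 3 sham and 3 TBI animals and 1 library per mouse. The TBI mice (traumatic brain injury) received a moderate controlled cortical impact through a craniotomy over the right parietal cortex. Controls were sham-operated and not struck, so both groups carried the craniotomy and the ketamine and xylazine anaesthesia. All tissue was taken 24 h after surgery, and the libraries are named Sham1 to Sham3 and TBI1 to TBI3 after the replicate numbers of the labels.

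Immediate early genes are transcribed within minutes of a strong synaptic input because the factors that switch them on are already present in the cell. Calcium entry through NMDA receptors and L-type channels activates kinases that phosphorylate CREB and the SRF cofactors at their promoters, and most of the transcripts are short-lived. Most members encode transcription factors that act on later genes, while Arc acts directly at the synapse, and in the hippocampus these genes are widely read as markers of recently active neurons. Several, such as Fos, Junb, Egr1 and Ier2, are also induced by growth factors and stress in glia and vascular cells, whereas Npas4 responds mainly to neuronal activity.

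The promoters of the members are shown first because CREB and SRF are the best known regulators of these genes. RefSeq windows (GRCm38.p6) of the 250 bases before the start were used for 7 of the 10 members. Arc, Egr1 and Ier2 were not analysed here at the sequence level. The windows were searched on both strands for TGACG, the core of the CREB site, and for the CArG box bound by SRF. TGACG occurred in a window of 7 of 7 members, against 19.8% of the 27025 genes with a window. The CArG box occurred in 1 of 7 members, Egr2, against 1.62% of genes. Only exact matches within the 250 bases were sought, so a CArG box further upstream or of a looser form would be missed. The full palindrome TGACGTCA, which contains the core, was in 0 of 7, against 1.77%. A site of the EGR family, GCGGGGGCG, was found in Fosb and Nr4a1, 2 of 7 members against 2.93% of genes. TATAAA was found in Fos only, 1 of 7 against 14.3%. The windows of Fos (chr12:85473640-85473889, plus strand), Egr2 (chr10:67537619-67537868, plus strand) and Nr4a1 (chr15:101266596-101266845, plus strand) are printed 5′ to 3′ with TGACG, its reverse complement CGTCA and the CArG box in capitals, together with 30 bases of Npas4 (chr19:4990128-4990157, minus strand). The Npas4 window lies wholly within exons of the GENCODE annotation, so it is upstream only of the RefSeq start, while the 3 other printed windows hold 0 exonic bases.
Fos: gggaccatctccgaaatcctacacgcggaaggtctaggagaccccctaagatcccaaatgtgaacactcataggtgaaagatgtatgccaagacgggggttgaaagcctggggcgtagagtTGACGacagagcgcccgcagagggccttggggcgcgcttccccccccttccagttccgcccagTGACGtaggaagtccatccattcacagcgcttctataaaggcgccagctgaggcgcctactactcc
Egr2: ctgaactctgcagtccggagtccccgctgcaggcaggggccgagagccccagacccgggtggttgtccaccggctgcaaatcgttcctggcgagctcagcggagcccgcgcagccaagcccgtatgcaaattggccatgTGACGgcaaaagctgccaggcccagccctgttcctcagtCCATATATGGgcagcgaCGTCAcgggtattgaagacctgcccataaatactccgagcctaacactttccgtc
Nr4a1: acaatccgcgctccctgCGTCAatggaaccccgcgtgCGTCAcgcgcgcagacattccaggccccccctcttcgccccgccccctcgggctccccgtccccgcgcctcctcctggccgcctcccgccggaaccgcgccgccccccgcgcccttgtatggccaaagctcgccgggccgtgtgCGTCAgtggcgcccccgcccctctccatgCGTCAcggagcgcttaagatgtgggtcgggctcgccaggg
Npas4: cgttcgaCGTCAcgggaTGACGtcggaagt

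The Fos window held TGACG 129 and 66 bases before the start, and the TATA box 33 bases before it. The printed Egr2 window held the core at 111 and 55 bases with the CArG box between them at 72 bases. Egr2 has 5 windows in RefSeq, 3 of them overlapping, of which 3 held the core and 4 a CArG box, and the one furthest along the gene has 61 exonic bases. Nr4a1 held the core at 4 positions, 233, 213, 69 and 40 bases before its start, and Npas4 at 2 positions, 179 and 169 bases. Fosb and Junb each had 1 core, at 60 and 106 bases, and Egr4 had 2, at 177 and 109 bases. A match describes these letters and not a site in use, and no binding was measured.

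The members are compact genes. Their spans ran from 1522 to 20527 bases, and 9 of 10 were shorter than the median of the tested genes, 19432 bases. Their longest transcript models had 1 to 8 exons, below the median of 7 in 8 of 10. Junb shared 173 of its 2301 exonic bases (7.52%) with Prdx2 on the opposite strand, and the strand setting of the counting is not given in the sources used here. Prdx2 had similar levels in both groups, 229 ± 4.14 CPM in sham and 241 ± 12.3 CPM in TBI.

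Levels below are in CPM, the counts of a gene scaled to a common library size with TMM factors, and means are given with the SD over the 3 libraries of a group. The libraries held 31630936 to 41771872 counts each. Cell type or regional markers stood apart most in 3 of the 6 libraries, Sham2, TBI1 and TBI3, but differed among the other libraries too. In Sham2 all 10 reactive astrocyte markers were at their highest, with a summed level of 5111 CPM against 722 and 724 CPM in the other sham libraries and 643 to 1790 CPM in TBI, although this library is labelled sham. An exchange of labels or tissue between mice is possible and was not tested, so each difference between TBI and sham below is one between libraries as labelled. Ptgs2 and Bdnf, described further on, were above every TBI library in Sham2, as in the other sham libraries. Both were named for an unadjusted p below 0.05 under these same labels, so their levels do not test the labels. The oligodendrocyte markers of Sham2 summed to 2695 CPM against 7855 to 9856 CPM elsewhere. In TBI1 all 7 striatal markers were at their highest, with a sum of 3763 CPM against 132 to 182 CPM, and the dentate granule cell markers summed to 30.5 CPM against 135 to 290 CPM. In TBI3 all 5 cerebellar markers were at their highest, with a sum of 1684 CPM against 12.4 to 27.5 CPM, and the CA1 pyramidal cell markers summed to 255 CPM against 467 to 597 CPM. All 5 dentate markers had lower means in TBI, with a median of -0.97 on the log2 scale, but their mean distance from the sham mean was -3.36 in TBI1 against -0.056 in TBI2 and -0.45 in TBI3. Choroid plexus markers summed to 2019, 2064 and 2343 CPM in Sham1, Sham3 and TBI2 but to 53.6, 239 and 253 CPM in Sham2, TBI1 and TBI3, and red blood cell markers were highest in TBI2 at 365 CPM. Thalamic markers summed to 133, 44.2 and 352 CPM in sham and 45.0, 319 and 462 CPM in TBI, and all 5 were highest in TBI3. Sham1, Sham3 and TBI2 were thus not shown to hold hippocampus alone. The part of these tissue differences in the early gene levels was not tested. General neuron markers summed to 6037 to 6418 CPM in sham and 5144 to 5480 CPM in TBI, a sum that weighs abundant genes most. Of the 8 markers, 5 were lower and 3 higher in TBI. Their DESeq2 log2 fold changes ran from -1.15 for Neurod6 to 0.79 for Gad2, with -0.019 for Rbfox3 and 0.045 for Snap25. Values without a library are given below where they differ most from those with all libraries.

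No member passed the test for a difference between TBI and sham. A call required p below 0.05, an adjusted p below 0.1 and a difference of more than 1.5-fold in either direction. The edgeR quasi-likelihood test with Benjamini-Hochberg adjustment called 0 of 18795 genes (0%) and 0 of 10 members. At an unadjusted p below 0.05 it listed 806 genes (4.29%), of which 406 (2.16%) were higher and 400 (2.13%) lower in TBI, and 1 member, Npas4, was among the lower. DESeq2 with its defaults called 46 of 20786 genes (0.221%) and again 0 members. At an unadjusted p below 0.05 DESeq2 had 586 of 28118 genes lower in TBI (2.08%), among them 2 members, Npas4 and Fosb. Mean levels were lower in TBI for 8 of 10 members, where 48.6% of all tested genes had a negative log2 fold change. The median log2 fold change of the members was -0.56, against 0.0091 over all tested genes. In these bulk samples, fewer cells of a type and less RNA per cell cannot be told apart.

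**Figure D1:**
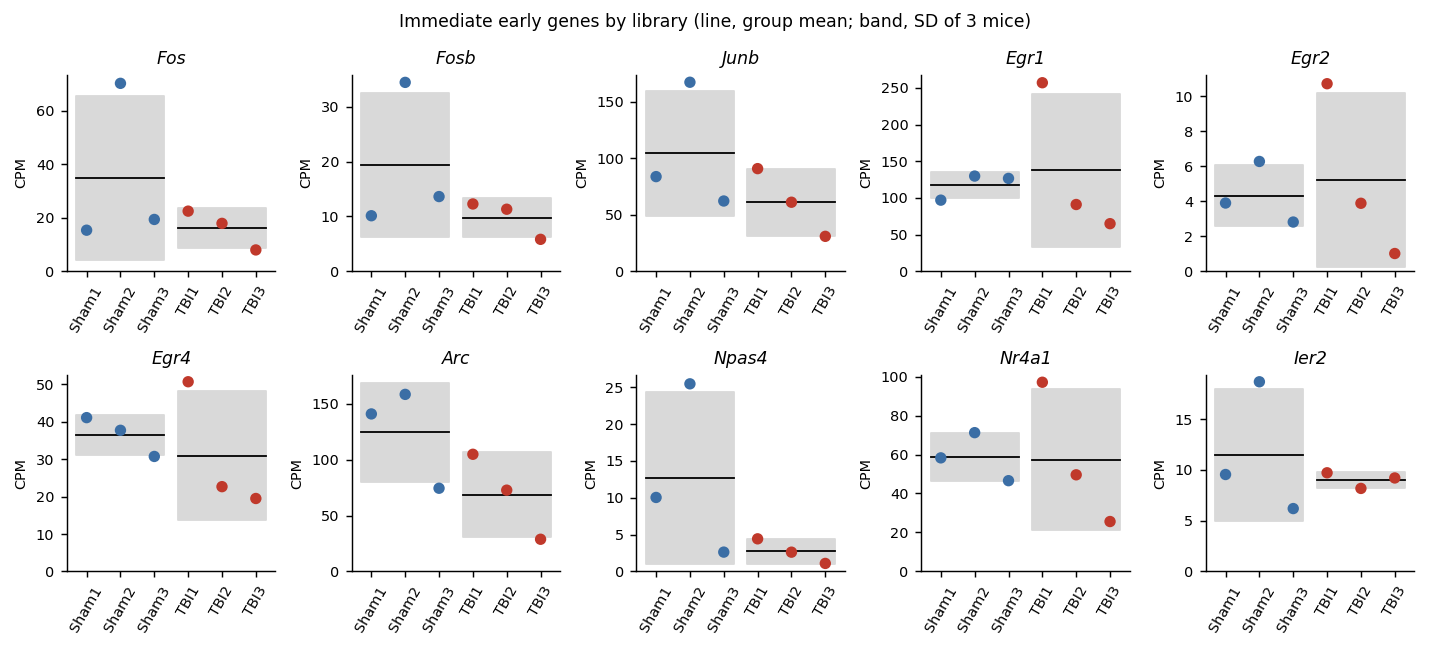
Level of each of the 10 genes in CPM, on axes that start at 0, in the 3 sham (blue) and 3 TBI (red) libraries, with a line at the group mean and a grey band of 1 SD to each side. The groups overlap for every gene, and Sham2 gives the highest point for 6 of them.

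Fos, Fosb and Junb encode subunits of the AP-1 factor. Fos, which pairs with JUN proteins, had 15.3, 70.3 and 19.4 CPM in Sham1, Sham2 and Sham3, and 22.5, 17.9 and 7.95 CPM in TBI1, TBI2 and TBI3. Sham2 stood above every other library, and the remaining sham values lay inside the TBI range. The means were 34.98 ± 30.6 CPM in sham and 16.1 ± 7.42 CPM in TBI, a log2 fold change of -1.12 (SE 0.66, adjusted p = 0.982). Without Sham2 it was -0.11. Fosb, the close paralog whose truncated product accumulates with repeated activity, had 10.1, 34.5 and 13.6 CPM in sham and 12.3, 11.3 and 5.82 CPM in TBI. Its pattern was that of Fos, with Sham2 far above and TBI3 lowest. The log2 fold change was -0.99 (SE 0.52, adjusted p = 0.982), and -0.28 without Sham2.

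Junb, a partner of the FOS proteins, had 83.8, 167 and 62.2 CPM in sham and 90.9, 61.1 and 30.9 CPM in TBI. TBI1 lay above both Sham1 and Sham3, so the groups overlapped. Means were 104 ± 55.6 and 60.9 ± 29.99 CPM, with a log2 fold change of -0.78 (SE 0.49, adjusted p = 0.982). It was -0.26 without Sham2 and -1.18 without TBI1. Ier2, a small nuclear protein of the early response, had 9.56, 18.7 and 6.20 CPM in sham and 9.73, 8.19 and 9.22 CPM in TBI. The TBI libraries were nearly level with each other and lay between Sham3 and Sham2. Its log2 fold change was -0.34 (SE 0.40, adjusted p = 0.982), and it had the opposite sign, 0.20, without Sham2.

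Npas4 and Arc are the members most tied to neurons. Npas4, a basic helix-loop-helix factor that adjusts the inhibitory synapses of active neurons, had 10.05, 25.5 and 2.63 CPM in sham and 4.43, 2.62 and 1.10 CPM in TBI. These values rest on 407, 1022 and 101 counts in sham and 181, 83 and 39 counts in TBI. Sham3 was as low as TBI2 and below TBI1, so the groups overlapped although the sham mean was higher. The means were 12.7 ± 11.7 and 2.72 ± 1.67 CPM, and TBI stood at 21.4% of sham. The log2 fold change was -2.22 (SE 0.86) with an unadjusted p of 0.0382 and an adjusted p of 0.982. DESeq2 gave an adjusted p of 0.359. The difference was -1.22 without Sham2 and -2.78 without TBI1 on the log2 scale.

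Arc, which binds the endocytic machinery and helps remove AMPA receptors from the synapse, had 141, 159 and 74.5 CPM in sham and 105, 72.8 and 28.9 CPM in TBI. TBI1 was above Sham3, and TBI2 was close to Sham3. The means were 125 ± 44.3 and 68.9 ± 38.2 CPM, with a log2 fold change of -0.86 (SE 0.49, adjusted p = 0.982). It was -0.65 without Sham2, -1.30 without TBI1 and -0.49 without TBI3. Arc, Fosb and Npas4 were the members whose log2 fold change stayed below 0 in every setting tried, including the removal of both Sham2 and TBI3, where Arc had -0.28, Npas4 -0.84 and Fosb -0.0053.

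The 3 EGR members and Nr4a1 had another profile, with TBI1 in place of Sham2 as the highest library. Egr1, a zinc finger factor needed for lasting synaptic potentiation, had 96.9, 130 and 127 CPM in sham and 257, 90.9 and 64.8 CPM in TBI. The sham libraries were close together, TBI1 was far above them, and the other TBI libraries were below all of them. The means were 118 ± 18.1 and 138 ± 104 CPM, with a log2 fold change of 0.23 (SE 0.50, adjusted p = 0.985). Without TBI1 it was -0.60, and without TBI3 0.56.

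Egr2, the family member also known for its role in myelinating glia of peripheral nerves, had 3.90, 6.28 and 2.81 CPM in sham and 10.7, 3.89 and 1.01 CPM in TBI. TBI held both the highest and the lowest value, a 10.6-fold range against 2.23-fold in sham. The log2 fold change was 0.27 (SE 0.78, adjusted p = 0.986), and -0.82 without TBI1. Egr4 had 41.0, 37.7 and 30.7 CPM in sham and 50.6, 22.6 and 19.5 CPM in TBI. Here too TBI1 was above and the other TBI libraries below all sham libraries. Its log2 fold change was -0.24 (SE 0.37, adjusted p = 0.983), with -0.79 without TBI1 and 0.0048 without TBI3.

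Nr4a1, an orphan nuclear receptor, had 58.3, 71.2 and 46.6 CPM in sham and 97.1, 49.6 and 25.6 CPM in TBI. The means were nearly equal, 58.7 ± 12.3 and 57.4 ± 36.4 CPM, and the libraries were spread more widely in TBI. The log2 fold change was -0.03 (SE 0.45, adjusted p = 0.996), -0.64 without TBI1 and 0.32 without TBI3. TBI1, the highest library of these 4 genes, is the one with the striatal markers. The part of that tissue in the result was not tested.

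**Figure D2:**
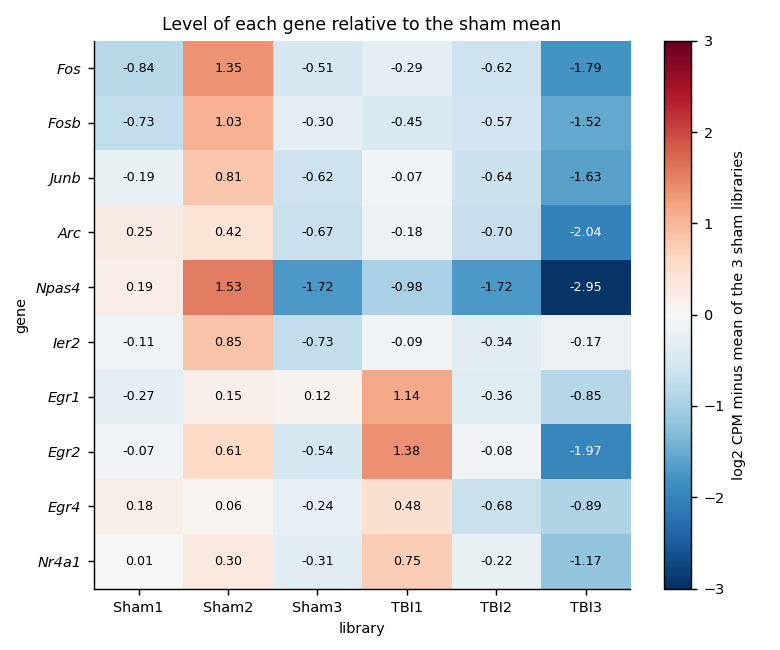
Log2 CPM of each gene (rows) in each library (columns) minus the mean of the 3 sham libraries, with red for higher and blue for lower. The rows Fos to Ier2 peak in Sham2, the rows Egr1 to Nr4a1 peak in TBI1, and TBI3 is lowest in 9 of 10 rows.

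Sham2 was the highest library for 6 of 10 members, Fos, Fosb, Junb, Arc, Npas4 and Ier2, against 23.7% of all tested genes. TBI1 was highest for the other 4, against 19.7% of all genes. TBI3 was lowest for 9 of 10, against 18% of all genes, and Ier2 alone was lowest in Sham3. Averaged over the members and relative to the sham mean, the libraries stood at -0.16, 0.71 and -0.55 in sham and at 0.17, -0.59 and -1.50 in TBI on the log2 scale. Sham3 and TBI2 were thus nearly level.

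The spread between libraries of a group was large for genes of this level, and part of it rested on the libraries that stood apart most. The SD of log2 CPM was compared with that of genes within 0.5 log2 CPM of each member. In sham it lay above the 90th percentile for 6 of 10 members, led by Fos at 97.7, Npas4 at 97.2 and Junb at 96.7, and all 6 had Sham2 as their highest library. Without Sham2 it was 4 of 10, with Fos at 75.0, Npas4 at 98.8 and Arc at 99.0. In TBI it lay above the 90th percentile for 8 of 10 members, again for 8 without TBI1, but for 3 without TBI3, namely Egr1, Egr4 and Nr4a1. Ier2 was the opposite case, at 91.2 in sham and 15.7 in TBI. The median SD over all tested genes was 0.277 in sham and 0.283 in TBI on the log2 scale.

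No member had groups without overlap. Over all tested genes 1025 (5.45%) were lower and 897 (4.77%) higher in every TBI library than in every sham library. Leaving out TBI1 gave 5 members with every TBI library below every sham library, where 11.3% of genes did so. Leaving out Sham3 gave 2 members (background 10.8%) and leaving out Sham1 gave 1 (9.17%). There were 0 without Sham2 (10.4%), without TBI2 (11.5%) and without TBI3 (9.49%). Without Sham2 and TBI3 there were 0 (16.4%), and without Sham2, TBI1 and TBI3 there were 5 (33.2%), where TBI is a single library. The median log2 fold change of the members was -1.003 without TBI1 and -0.16 without Sham2. It was 0.13 without Sham2 and TBI3, and -0.17 without Sham2, TBI1 and TBI3.

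**Figure D3:**
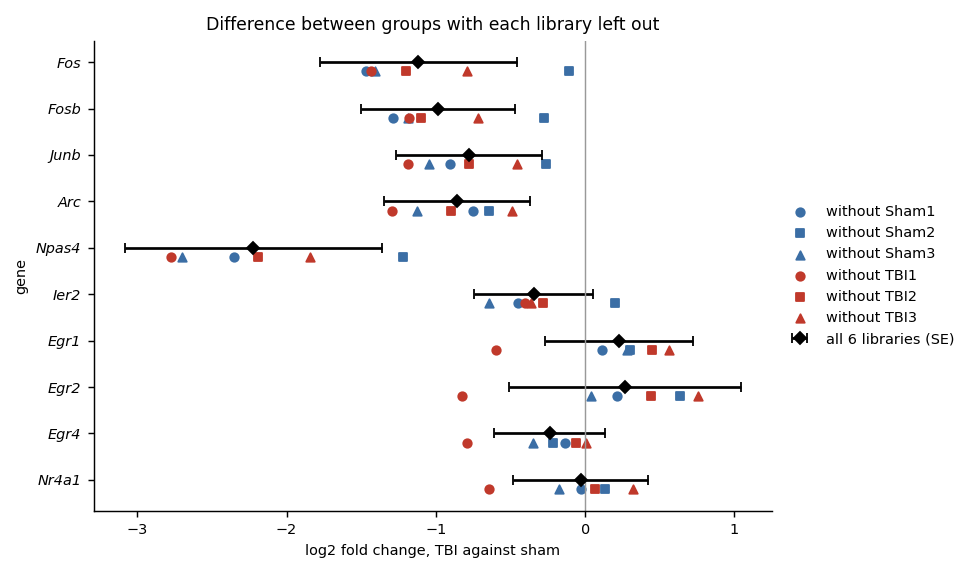
Log2 fold change of TBI against sham for each gene with all 6 libraries (black, with its SE) and with each library left out in turn. Without Sham2 the values of Fos, Fosb, Junb, Npas4 and Ier2 move toward or past 0, and without TBI1 those of Egr1 and Egr2 cross to below 0 while those of Egr4 and Nr4a1 lie further below it.

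Per kilobase of exon, the sham levels ran from Junb (45.4 ± 24.1 CPM per kb) and Arc (40.8 ± 14.5 CPM per kb) down to Npas4 (3.07 ± 2.82 CPM per kb) and Egr2 (1.27 ± 0.522 CPM per kb). Between them came Egr1 (26.2 CPM per kb), Egr4 (17.0), Nr4a1 (16.7), Fos (14.9), Ier2 (7.54) and Fosb (3.11). Of the 9 neighbouring pairs in this order, 8 overlapped between libraries, and the exception was Egr1 above Egr4. Without Sham2, Arc (35.3 CPM per kb) came before Junb (31.7), and the levels of Fos (7.37), Fosb (1.902) and Npas4 (1.53 CPM per kb) were also lower. In TBI the order began with Egr1 (30.7 CPM per kb), Junb (26.5) and Arc (22.5), and ended with Fosb (1.57), Egr2 (1.53) and Npas4 (0.657), and again 8 of 9 neighbouring pairs overlapped. The first place of Egr1 rested on TBI1, without which Junb (19.98 CPM per kb) came before Egr1 (17.4) and Arc (16.6). Egr2 stood at 0.721 CPM per kb without TBI1 and at 2.15 CPM per kb, before Fosb, without TBI3.

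Most other genes of the rapid response had Sham2 as their highest library too. Of 30 such genes, all tested, 22 were highest in Sham2, and 22 had lower and 8 higher means in TBI, and the median of their log2 fold changes was -0.34. Without Sham2 that median had the opposite sign, 0.31. The edgeR test called 0, and 1 had an unadjusted p below 0.05. This was Jun, the principal AP-1 partner of Fos, with 115, 280 and 87.5 CPM in sham and 78.7, 87.2 and 67.8 CPM in TBI. Every TBI library was below every sham library, by a narrow margin between TBI2 and Sham3. Its log2 fold change was -1.05 (SE 0.43, adjusted p = 0.982), and -0.38 without Sham2. Jund and Arf4, the most abundant of the list beside Jun, were close in both groups, with log2 fold changes of 0.07 and -0.12, and that of Arf4 was -0.0014 without TBI3.

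Sham2 was further apart for Atf3 and Gadd45b, stress-induced genes chosen after their values were seen. Atf3 had 0.593, 17.9 and 0.938 CPM in sham and 4.53, 4.11 and 0.899 CPM in TBI. Gadd45b had 15.9, 100 and 13.9 CPM in sham and 22.6, 17.6 and 14.4 CPM in TBI. The log2 fold change of Atf3 was -1.03 with all libraries and 2.05 without Sham2, and that of Gadd45b was -1.25 and 0.29. Sham2 is the library with the reactive astrocyte markers, and the part of those cells in the early gene levels was not tested.

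Among 16 later activity-regulated genes, whose products act on synapses and neighbouring cells, 13 were lower and 3 higher in TBI, and the median of their log2 fold changes was -0.36 with all libraries, -0.085 without Sham2 and -0.64 without TBI1. The edgeR test called 0, with 2 lower and 1 higher at an unadjusted p below 0.05. Ptgs2, which encodes the inducible cyclooxygenase, had 34.1, 36.7 and 18.3 CPM in sham and 7.91, 11.8 and 8.51 CPM in TBI. Bdnf, the neurotrophin, had 57.8, 78.9 and 46.6 CPM in sham and 22.6, 34.7 and 28.7 CPM in TBI. In both genes every TBI library was below every sham library, as was so for 5.45% of all tested genes. Their log2 fold changes were -1.66 (SE 0.31) and -1.09 (SE 0.25), with an adjusted p of 0.982 by edgeR. With 1 library left out they ran from -1.92 to -1.48 for Ptgs2 and from -1.26 to -0.87 for Bdnf. DESeq2 called both, with adjusted p = 0.00126 for Ptgs2 and 0.0508 for Bdnf. Penk, the proenkephalin gene, had 1029 CPM in TBI1 against 18.4 to 53.1 CPM in the other libraries, and its log2 fold change of 3.54 was 0.07 without TBI1. TBI1 is the library with the striatal markers, and the part of that tissue in the Penk level was not tested. Rasgrp1 and Scg2, among the most abundant of this list, had log2 fold changes of -0.30 and -0.07, and that of Rasgrp1 ran from -0.55 without TBI1 to -0.11 without TBI3.

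**Figure D4:**
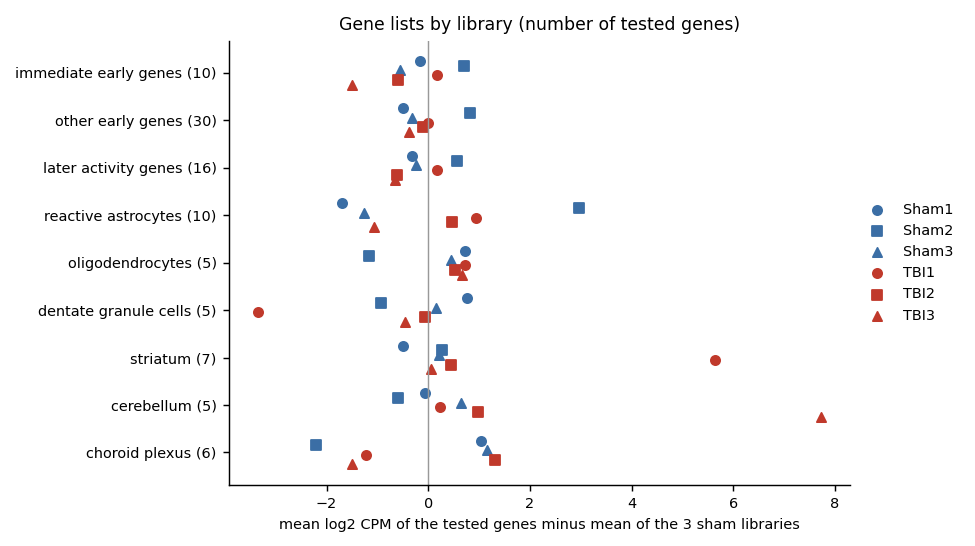
Mean log2 CPM relative to the sham mean in each library for the early genes, the other rapid and later activity genes and 6 marker lists, with 1 point per library. The early genes and the other rapid genes are highest in Sham2, where the reactive astrocyte markers are highest too.

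The signalling genes upstream were closer to 0. Of 25 kinases and factors that carry the signal to these promoters, 12 were higher and 13 lower, with 0 called by edgeR and a median log2 fold change of -0.03, which was 0.067 without TBI3. At an unadjusted p below 0.05 there were 2, Camk4 (0.98) and Rps6ka5 (0.63), which encode kinases acting on CREB, both higher in TBI. Camk4 was highest in TBI1 at 410 CPM, followed by TBI3 at 290 CPM, and stood at 119 to 155 CPM in the other libraries. Its log2 fold change was 0.61 without TBI1, and that of Rps6ka5 was 0.46 without TBI3. The abundant Camk2a, Ppp3ca and Camk2b had log2 fold changes of -0.45, 0.02 and 0.16, with -0.18 for Camk2a without Sham1 and 0.015 for Camk2b without Sham2.

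Of 10 membrane receptors and channels that start the signal, 9 were lower in TBI, edgeR called 0, and the median was -0.32 on the log2 scale. Gria1, an AMPA receptor subunit, had 962, 648 and 693 CPM in sham and 466, 586 and 596 CPM in TBI, without overlap, and a log2 fold change of -0.48 (SE 0.19, unadjusted p = 0.0385). Sham1 was the highest library for 7 of the 10, and without it the log2 fold change of Gria1 was -0.28 and the median -0.22. Gria2 had -0.42 (-0.26 without TBI3) and Ntrk2, the BDNF receptor, 0.13. Of 13 binding partners and co-repressors of the members, 8 were higher and 5 lower, with 0 called and a median of 0.11, which was -0.018 without TBI1. Cacng2, an AMPA receptor auxiliary subunit that binds Arc, had 0.51 (unadjusted p = 0.0403 by edgeR, and 0.33 without TBI3). It stood at 109 CPM in TBI1 and 134 CPM in TBI3 against 67.1 to 88.9 CPM in the other libraries. Dlg4 had -0.04, the Npas4 partner Arnt2 -0.17 (-0.0070 without Sham2) and Wasf1 -0.47 (-0.25 without Sham1).

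**Figure D5:**
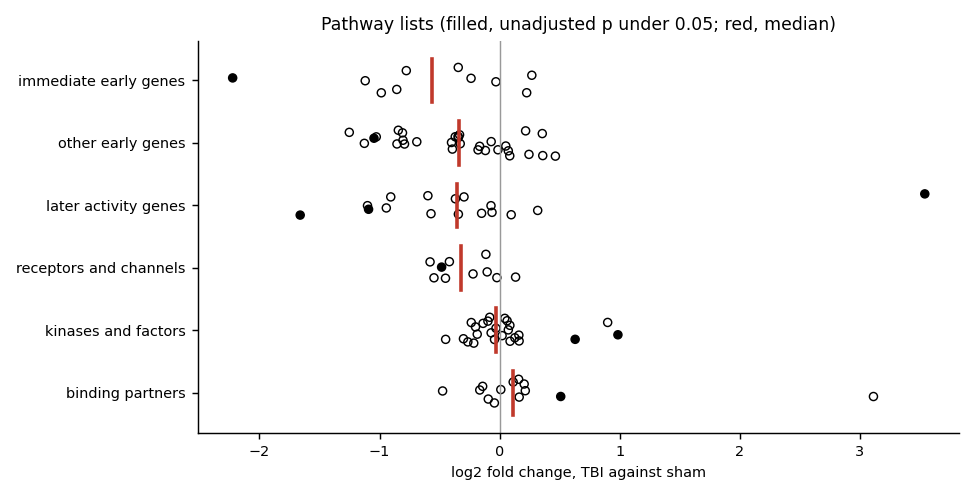
Log2 fold change of TBI against sham for each gene of the 6 lists, with a red bar at the median and filled points for an unadjusted p below 0.05. With all libraries the early genes have the lowest median, -0.56, and Npas4 is their single filled point.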

How the data were processed

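RNA was measured in 6 hippocampal libraries, 3 sham and 3 TBI, grouped by their labels. Per the labels, the authors used FastQC for read quality, HISAT2 for alignment (GRCm38) and StringTie for quantification, and deposited 1 table of estimated counts per library. Versions are not given in the sources used here. Low values piled up at multiples of 4 (5109 values of 4 against 2325 of 3), so the deposited estimated counts may not be plain read counts, and no counting error was derived from them. They were whole numbers and were used as deposited. Of the identifiers, 52403 matched a GENCODE vM21 symbol and 147 did not.

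Genes were kept by filterByExpr, scaled by TMM and tested with the quasi-likelihood test of edgeR 4.0.16 (limma 3.58.1, R 4.3.3) without covariates. Log2 CPM used a prior count of 2. DESeq2 1.42.0, the tool of the study, was an alternative, with other scalings, filters, a count divided by 4, robust dispersions, a replicate block and each library left out. Removing 2 or 3 libraries together, and single libraries from the spread and the levels per length, was added after seeing the data. With 3 against 3 mice an exact permutation test cannot go below 0.1, so none was used.

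All members were named. In each other list the genes with an unadjusted p below 0.05 (at most 6) and up to 3 of highest level were named, with the 5 genes of most similar profile and genes overlapping a member. The members and lists were chosen with earlier results of these data known.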

Additional observations from a re-analysis of the deposited data

How the results depend on the processing

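No member was called in any setting. The number of genes called, 0 with edgeR, was 46 with DESeq2 defaults, 43 with DESeq2 on the filtered genes, 0 to 1 with 1 library left out and 11 without Sham2, TBI1 and TBI3. The second DESeq2 setting used the genes that edgeR tested, and the cause of the difference between the tools was not tested. The members' median log2 fold change, -0.56, stayed between -0.58 and -0.54 under other scalings, filters and tools, ran from -1.003 to -0.16 with 1 library left out and was 0.13 without Sham2 and TBI3. The members without overlap, 0, ran from 0 to 5 with 1 library left out and were 5 without Sham2, TBI1 and TBI3.

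Whether the replicate numbers pair the samples could not be decided from correlations over 3 libraries per group. Same-numbered libraries correlated at -0.10, -0.065 and 0.15 in their deviations from the group mean, and Sham2 correlated best with TBI1 (0.21). With the replicate block 0 genes were called and the members' median was -0.58, while Egr1 (-0.048), Egr2 (-0.24) and Atf3 (0.14) changed sign.

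With 1 library left out the log2 fold change changed sign for Egr1 (-0.60 to 0.56), Egr2 (-0.82 to 0.76), Egr4 (-0.79 to 0.0048), Nr4a1 (-0.64 to 0.32), Ier2 (-0.65 to 0.20), Jund (-0.020 to 0.15), Scg2 (-0.38 to 0.18), Ppp3ca (-0.29 to 0.26), Dlg4 (-0.21 to 0.091), Oaf (-0.79 to 0.013), Atf3 (-1.56 to 2.05) and Gadd45b (-1.67 to 0.29). Fos (-1.47 to -0.11) and Junb (-1.18 to -0.26) kept theirs. Without Sham2 and TBI3, Fos was 0.22, Junb 0.062, Egr1 0.65, Egr2 1.13, Egr4 0.037, Nr4a1 0.49 and Ier2 0.19. Without Sham2, TBI1 and TBI3, Fos was 0.040, Egr1 -0.30 and Ier2 0.048, and the single TBI library was assumed to vary like the sham libraries.

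The lowest member values, Egr2 and Npas4 in TBI3, rest on 36 and 39 counts, and all other member values on more.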

Other observations

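Outside the lists, the genes whose profile over the 6 libraries lay nearest to the mean profile of the members were Grasp, Rel, Sox9, Gm43126 and Oaf, with root mean square differences of 0.109, 0.111, 0.129, 0.157 and 0.158 on the centred log2 CPM scale. Grasp, which encodes a scaffold protein, had 65.4, 103 and 51.5 CPM in sham and 77.5, 44.4 and 27.8 CPM in TBI. Sox9, a transcription factor of astrocytes, had 45.5, 75.4 and 31.4 CPM in sham and 51.8, 30.7 and 20.8 CPM in TBI. Each of the 5 was highest in Sham2 and lowest in TBI3. The likeness is over 6 libraries, was chosen as the nearest of all tested genes and carries no test.

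Of the 8 general neuron markers, 5 were lower and 3 higher in TBI, with 2 lower at an unadjusted p below 0.05 and 0 called by edgeR. All 10 microglial markers had higher means in TBI (median 0.38 on the log2 scale), 0 were called by edgeR, and 9 of 10 were highest in TBI1.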
